A study of Lens culinaris with 20 samples.

Results

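The miR160 family of lentil (Lens culinaris, a grain legume) was described across 7 tissues. Its members were the known-miRNA entries of the deposited small RNA table, those without the lentil prefix lcum- or the prefix PC-, whose family number was exactly 160. These were 14 entries with 11 different mature sequences, of 1464 sequences in the table. By sequence, 7 of the 11 were taken as the 5p arm of a precursor and 4 as the 3p arm. Those of the 5p arm shared a run of at least 14 bases with the most abundant sequence, mtr-miR160a. Those of the 3p arm shared at most 4. The table names each entry after its closest known miRNA, with a prefix for the species (mtr for barrel medic, ath for Arabidopsis, csi for sweet orange, ptc for poplar) and a suffix for base changes and for bases gained or lost at either end, but all reads are from lentil.

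Small RNA was sequenced from roots, shoots, mature leaves, stem, flower buds, flowers and young pods. Each tissue had 3 libraries except flowers, which had 2, making 20. The labels name the tissue of each library and state that RNA came from pooled samples, while they give no cultivar, plant age or treatment. Whether libraries of the same tissue came from different plants is not stated, and the spread between them, on which every p-value rests, may therefore be technical.

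In plants the miR160 precursor folds into a hairpin, and Dicer-like enzymes cut from it a duplex of the guide strand (here the 5p arm) and the opposite strand (the 3p arm). In Arabidopsis the guide directs the cleavage of transcripts of a group of auxin response factors, repressors of auxin-regulated genes, and its loss or excess changes root caps, leaves, flowers and embryos. The 3p strand is usually the less abundant one, as for most plant miRNAs.

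Of the family's sequences, those of the 5p arm that begin at the same base are shown first, since they differ only toward the 3′ end. Capitals mark bases 2 to 8, the seed.
mtr-miR160a: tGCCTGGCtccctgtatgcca
csi-miR160c-5p_1ss19CT: tGCCTGGCtccctgtatgttt
csi-miR160c-5p_R+1_1ss19CT: tGCCTGGCtccctgtatgtttt
csi-miR160c-5p_R-1_1ss18GA: tGCCTGGCtccctgtatact
ptc-miR160h: tGCCTGGCtccctgcatgcca
All 5 carried the seed gcctggc. With positions counted from 1 at the 5′ end of mtr-miR160a and its base written first, csi-miR160c-5p_1ss19CT differed by C19T, C20T and A21T, and csi-miR160c-5p_R+1_1ss19CT by the same changes plus 1 more base, so both ended in a run of T. ptc-miR160h differed by T15C, and the 20 nt csi-miR160c-5p_R-1_1ss18GA by G18A and C20T. The table lists csi-miR160c-5p_1ss19CT on the 3′ arm, against its name and its sequence, and no listed precursor held it or either of the other csi forms exactly.

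The other 5p sequences began upstream of mtr-miR160a, which gave each a seed of its own. The 22 nt form began 2 bases upstream and ended 1 base earlier, and mtr-MIR160d-p5 began 3 bases upstream.
ath-miR160a-5p_L+2R-1: tATGCCTGgctccctgtatgcc
mtr-MIR160d-p5: gTGTGCCTggctccctgtatg

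The 3p sequences fell into 3 seeds, of which the first was shared by a 21 nt and a 22 nt sequence.
ath-miR160a-3p_2ss6TC21AG: gCGTACGAggagccatgcatg
mtr-MIR160a-p3_1ss5GA: gCGTACGAggagccatgcatgt
ath-miR160c-3p_L+1R-1_1ss7AC: gCGTACCAggagtcaagcatg
mtr-miR160f_1ss16AT: gCGTGAAGggagtcatgcagg

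The table's precursors show which 5p and 3p sequences belong together. The family's entries listed 10 distinct precursors, or 8 after those lying inside a longer one were merged. After the 4 longest came 1 of 75 nt, listed for csi-miR160c-5p_1ss19CT, which held no family sequence exactly. The rest were 29 to 32 nt long. The 4 longest are printed with the bases covered by family sequences in capitals.
Precursor 1 (122 nt): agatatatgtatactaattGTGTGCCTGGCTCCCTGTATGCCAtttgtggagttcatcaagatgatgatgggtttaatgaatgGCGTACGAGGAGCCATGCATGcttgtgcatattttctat
Precursor 2 (94 nt): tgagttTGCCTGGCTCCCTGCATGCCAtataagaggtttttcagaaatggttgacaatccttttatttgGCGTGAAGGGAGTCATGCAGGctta
Precursor 3 (92 nt): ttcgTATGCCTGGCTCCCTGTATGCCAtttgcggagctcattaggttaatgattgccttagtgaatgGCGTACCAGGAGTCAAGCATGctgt
Precursor 4 (91 nt): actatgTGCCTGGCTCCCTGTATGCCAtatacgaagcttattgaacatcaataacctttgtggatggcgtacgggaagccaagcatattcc
The folded minimum free energies (RNAfold) were -54.9, -50.9, -44.0 and -49.1 kcal/mol for precursors 1 to 4. The sequence of mtr-miR160a lay in 3 of them (1, 3 and 4), so its reads cannot be divided among these precursors. By contrast, ath-miR160a-3p_2ss6TC21AG lay in precursor 1 only and ath-miR160c-3p_L+1R-1_1ss7AC in precursor 3 only. In the folded precursors mtr-miR160a paired with each of these 3p sequences with an overhang of 2 nt at both 3′ ends, the shape that Dicer-like enzymes leave. ptc-miR160h and mtr-miR160f_1ss16AT were the arms of precursor 2 with the same overhangs. The 22 nt form lay in precursor 3, where its overhangs with ath-miR160c-3p_L+1R-1_1ss7AC were 0 and 1 nt. Precursor 4, of 91 nt, was also listed for this form but did not hold it exactly. The 3p side of precursor 4 had 0 entries in the table.

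Levels are given as CPM (counts per 1000000 reads of the table, with TMM factors between libraries), per table entry. Per entry matters here because mtr-miR160a, the 22 nt form and ptc-miR160h each stood 2 times in the table, with equal and often fractional values. These were read as equal shares of a sequence's reads, which the sources used here do not state, so summed values are added where arms are compared. If each entry instead held all reads, the per-entry values apply and the summed values of these 3 sequences are 2 times too high. The table totals ran from 72853 to 997119 reads per library, and the family took 0.245% to 1.79% of them with entries summed. A value of 0 stands for fewer than about 5 reads, which is 4.03 CPM in the deepest library, the second of flowers, and 61.0 CPM in the third of mature leaves. The share of the table's reads that were 18 or 19 nt long, which can include degraded RNA, was 10.4% to 26.0% in roots and 0.865% to 12.4% elsewhere.

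Over the 20 libraries mtr-miR160a made up 60.8% of the family's reads per entry (75.0% summed) and ath-miR160a-3p_2ss6TC21AG 32.9% (20.3% summed). The TTT-ended 21 nt form followed with 3.24% (2.0% summed) and the 22 nt form with 1.20% (1.48% summed). Each of the other 7 sequences took less than 1%. Of the 11, 5 passed the filter on low counts and were tested among 323 sequences, so the tests say nothing of the other 6. Over the 7 tissues 4 of these 5 differed at an adjusted p under 0.05 (edgeR quasi-likelihood F test, Benjamini-Hochberg over all 323), where 74.3% of all tested sequences did. Pairs of tissues were called at an adjusted p under 0.05, over all sequences and 21 pairs, with a log2 fold change of at least 1. Of all tests over the 21 pairs, 26.2% were called.

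The main guide strand, mtr-miR160a, was above 0 in every library and was the steadiest member, with a ratio of 2.73 between its highest and lowest tissue mean. Roots held 2271, 2050 and 2720 CPM, shoots 2042, 2014 and 2546, and mature leaves 1932, 2700 and 2000. These vegetative tissues overlapped one another, with means of 2347 ± 341, 2201 ± 299 and 2211 ± 425 CPM (SD, n = 3). The stem libraries held 1017, 2822 and 1402 CPM (1747 ± 951), the widest spread for its level, and the flower libraries 2869 and 2630 (2750 ± 169, n = 2). Flower buds held 2652, 5147 and 6510 CPM (4770 ± 1956) and young pods 6434, 3227 and 3651 (4437 ± 1742). Every pod library lay above every library of the other tissues but flower buds, while the first bud library lay among the vegetative ones.

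The guide strand differed over tissues (adjusted p = 0.0241), a call that was lost with the replicate number as a block. In the main fit 2 of 21 pairs were called, both against stem. Flower buds exceeded stem by 1.45 ± 0.43 (log2 fold change ± SE, adjusted p = 0.0169), a pair in which 29.4% of all sequences were called. Young pods exceeded stem by 1.34 ± 0.42 (adjusted p = 0.0249; background 23.5%). The first call was lost without the first stem library (adjusted p = 0.0614), and the second without the first stem library (0.0850), the second flower library (0.0678) or the first pod library (0.0734). With the 2 entries summed, the order at the top was young pods (mean 9417 CPM) before flower buds (8664), and 5 pairs were called. Beside the pairs of stem, these were shoots against buds and pods, and mature leaves against pods. With DESeq2 in place of edgeR, buds and pods were each called against shoots, mature leaves and stem. Without the first stem library the calls were shoots and mature leaves against buds. In the order of tissue means, no tissue was called against its neighbour.

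**Figure D1:**
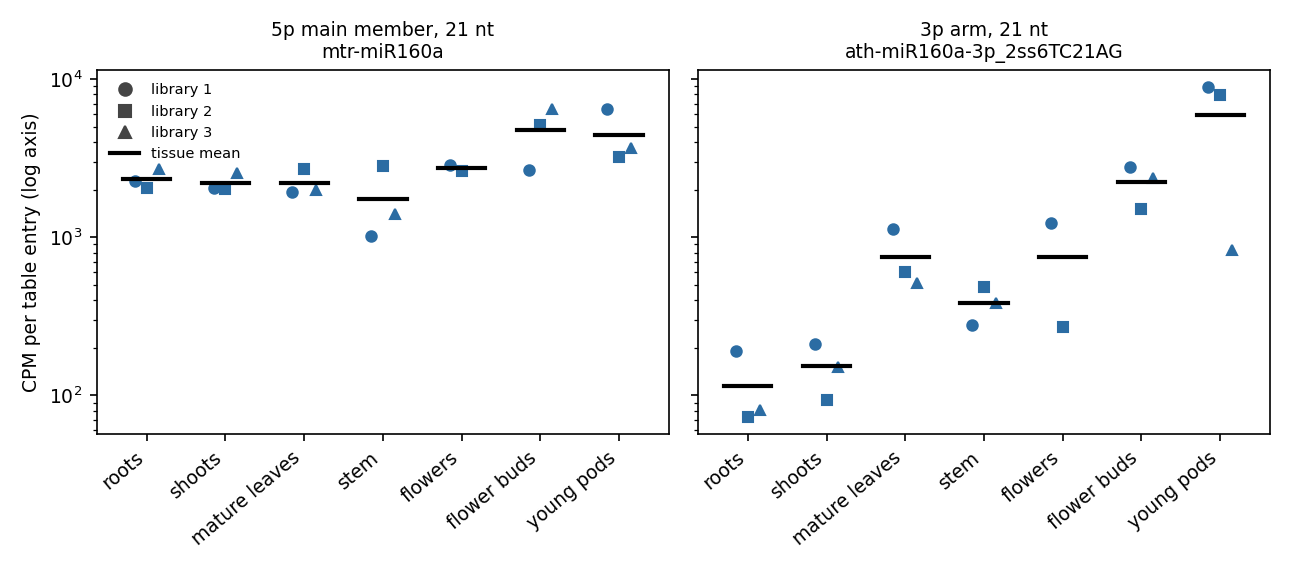
Levels of the guide strand mtr-miR160a and of the 3p strand ath-miR160a-3p_2ss6TC21AG in the 20 libraries, as CPM per table entry on a log axis; each symbol is a library and each bar a tissue mean. The guide's tissue means stay between 1747 and 4770 CPM, while those of the 3p strand run from 115 CPM in roots to 5910 CPM in young pods.

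The 3p strand ath-miR160a-3p_2ss6TC21AG varied far more, with a ratio of 51.3 between its highest and lowest tissue mean. It was lowest in roots, at 192, 72.9 and 80.6 CPM (115 ± 66.5), and in shoots, at 212, 94.0 and 151 (153 ± 59.1). The stem libraries held 279, 486 and 383 CPM (383 ± 104) and the mature leaves 1135, 604 and 512 (750 ± 336). These 4 tissues thus fell into a low pair, which overlapped, and a higher pair, all of whose libraries lay above it. The flower libraries were far apart, at 1229 and 272 CPM (751 ± 677, n = 2). Flower buds held 2775, 1506 and 2378 CPM (2220 ± 650), all above every library of roots, shoots, leaves, stem and flowers. Young pods held 8949, 7953 and 828 CPM (5910 ± 4429): their first 2 libraries were the highest of all 20, while the remaining library lay within the range of the mature leaves.

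The strand differed over tissues (adjusted p = 8.84e-06, edgeR) and was called in 12 of 21 pairs. Young pods exceeded roots by 5.69 ± 0.83 (adjusted p = 6.44e-05), shoots by 5.28 ± 0.81 (1.01e-04), stem by 3.95 ± 0.75 (7.64e-04) and mature leaves by 2.97 ± 0.72 (0.00540), all log2 fold change ± SE. Of all sequences 39.6%, 23.5%, 23.5% and 28.2% were called in these pairs. Flower buds exceeded roots by 4.27 ± 0.78 (5.39e-04), shoots by 3.87 ± 0.76 (0.00105) and stem by 2.53 ± 0.71 (0.0128), against backgrounds of 40.6%, 24.1% and 29.4%. These 7 calls held in all 29 alternatives tried. Young pods did not differ from flower buds at the threshold (1.41 ± 0.68, adjusted p = 0.131).

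The other 5 calls were less steady. Mature leaves exceeded roots by 2.72 ± 0.74 (adjusted p = 0.0114; background 43%) and shoots by 2.31 ± 0.73 (0.0240; 16.7%). The call over roots was lost without any of 3 libraries (the second or the third of roots or the first of leaves, adjusted p up to 0.111), and that over shoots without any of 9 (roots 2, shoots 2 or 3, leaves 1, stem 2, either of flowers, buds 2 or 3, up to 0.124). With library size alone in place of TMM both leaf calls were lost (adjusted p = 0.0698 over roots and 0.0520 over shoots). Flowers exceeded roots by 2.70 ± 0.78 (0.0159; background 35.9%), lost without the third root or the first flower library (up to 0.142). They exceeded shoots by 2.30 ± 0.77 (0.0331; 13%), lost without the second or the third shoot or the first flower library (up to 0.300) and with p-values adjusted within each pair (0.0692). Young pods exceeded flowers by 2.98 ± 0.85 (0.0141; 12.1%), lost without the second flower library (0.209). The mean of flowers was 272 CPM without its first library and 1229 without its second.

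The third pod library stood apart from the other two in more than this strand. Its rank correlation with them over all tested sequences was 0.869 and 0.889 (Spearman), against 0.940 between the first and second. Its share of 18 and 19 nt reads was 7.68%, against 3.09% and 6.19%, and its total was the lowest of the 3, at 196984 reads. The part of these in the result was not tested. Without this library young pods exceeded roots by 6.28, stem by 4.5 and leaves by 4.02 (log2), flower buds against young pods was called too (17.6% of all sequences called with all libraries), and the count of called pairs was 16.

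Set against the guide within each library, the 3p strand was most abundant in the first 2 pod libraries. With the guide's entries summed, the first pod library held 3518 reads of the 3p strand and 5058 of the guide, the second 3044 and 2469, and the third 157 and 1383. The ratios were 0.696, 1.23 and 0.114, so that the 3p strand outnumbered the guide in the second pod library. The first flower bud library came next, with 584 reads against 1116 (0.523). Per entry the guide held 2529 and 1234.5 reads in the first 2 pod libraries and 558 in the first bud library. By that count the 3p strand outnumbered it in each of these. In roots the ratios were 0.0422, 0.0178 and 0.0148, on 9 to 25 reads of the 3p strand.

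Counting all members, the 4 sequences of the 3p arm made up 3.65%, 1.57% and 1.35% of the family's summed reads in roots and 4.62%, 2.93% and 3.05% in shoots. They made up 22.3%, 9.92% and 11.2% in mature leaves and 12.1%, 7.91% and 11.8% in stem. Flowers were at 17.6% and 5.13%, flower buds at 33.6%, 12.1% and 15.1%, and young pods at 41.5%, 54.8% and 10.01%. Every root and shoot library thus lay below every other library. Per entry, the tissue means ran from 3.97% in roots and 6.73% in shoots to 31.8% ± 15.8 in flower buds and 49.0% ± 27.4 in young pods. This share differed over tissues (F statistic, permutation test with 100000 resamples, p = 0.0264, also after adjustment over the 2 share tests), and with entries summed p was 0.0327. In the same permutation test it did not pass the threshold without the third root library (p = 0.0502), the first pod library (0.0662) or the second (0.0595), and was 0.00151 without the third pod library. In bulk tissue, fewer cells making a strand and less of it per cell cannot be told apart. The main 3p strand lay in precursor 1 only, and mtr-miR160a in precursors 1, 3 and 4. In this share and in the ratios above, the mix of precursors and the balance of arms therefore cannot be told apart either.

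**Figure D2:**
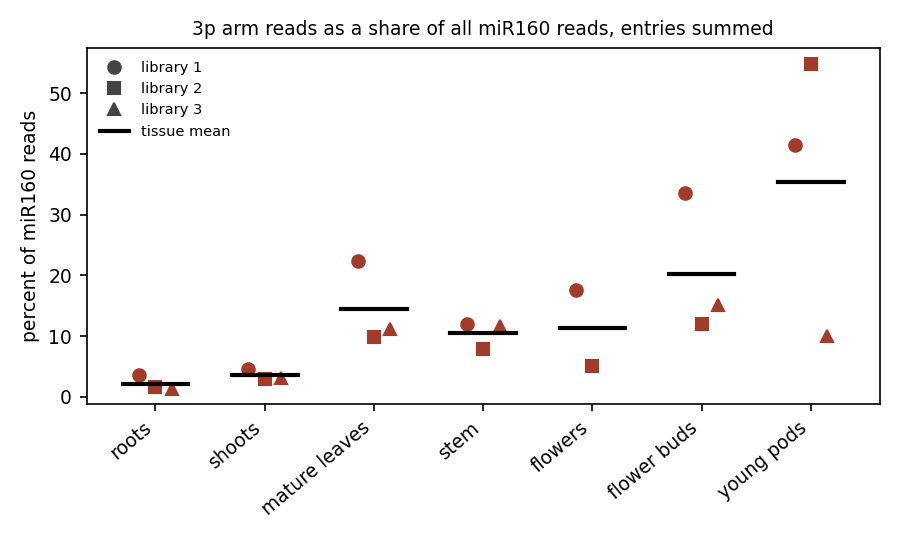
Share of the 3p arm in the miR160 reads of each library with entries summed, in percent, by tissue; symbols are libraries and bars tissue means. Roots and shoots lie lowest, and the third pod library lies well below the other two.

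Of the other 3p sequences, ath-miR160c-3p_L+1R-1_1ss7AC, the strand of precursor 3, was above 0 in 9 libraries. Young pods held 295, 41.8 and 0 CPM, flower buds 28.5, 29.5 and 50.3, flowers 24.8 and 20.9, and shoots 0, 40.3 and 23.5. It was at 0 in every library of roots, leaves and stem, where 0 allows fewer than about 5 reads. The pod mean of 112 CPM rested on the first library and was 20.9 without it. The 22 nt mtr-MIR160a-p3_1ss5GA, 1 base longer than the main 3p strand, was above 0 in 6 libraries, highest in the third of flower buds at 122 CPM. No listed precursor held this sequence exactly. The arms of precursor 2 were rare: ptc-miR160h was above 0 in 5 libraries, at 2.42 to 33.3 CPM, and mtr-miR160f_1ss16AT in 2, at 12.7 and 42.8 CPM. Both were above 0 in libraries of flowers, flower buds or young pods only, and none of these 4 sequences passed the filter for testing.

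The 22 nt form ath-miR160a-5p_L+2R-1 had another distribution. Shoots held 133, 175 and 202 CPM (170 ± 34.8) and flower buds 76.0, 175 and 144 (131 ± 50.4). Roots held 38.4, 64.8 and 26.9 CPM, mature leaves 63.1, 28.3 and 36.6, flowers 35.4 and 40.3, and young pods 53.4, 20.9 and 58. All 3 stem libraries were at 0, although 2 of them were among the deeper ones, with 756217 and 656096 reads. Shoots overlapped flower buds only. Reads were few, from 5 to 154 per library above 0 with entries summed, and 2 of the leaf libraries had 5.

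The form differed over tissues (adjusted p = 8.57e-05, edgeR), and 6 of 21 pairs were called, namely stem against each other tissue. As stem was at 0, only a lower bound of the fold holds, taken against 5 reads per stem library (a mean of 13.1 CPM). Shoots were at least 12.9-fold higher than stem, flower buds at least 10.03-fold, young pods at least 3.37-fold, roots at least 3.31-fold, leaves at least 3.25-fold and flowers at least 2.89-fold. In the pairs of stem not given above, 39.3% of all sequences were called against roots, 24.5% against shoots, 21.7% against mature leaves and 23.8% against flowers. The log2 fold changes of shoots over roots, mature leaves, flowers and young pods were 1.95 to 2.15, and none was called (adjusted p from 0.0549 to 0.0660). Without the second root, first leaf or second stem library 12 pairs were called, and without the third pod library 10.

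As a share of the 22 nt form plus mtr-miR160a, which removes the scaling between libraries, shoots stood at 5.91%, 7.85% and 7.29% (7.01% ± 1.0, n = 3). The highest share in any other library was 3.28%, in the second of flower buds (tissue mean 2.74% ± 0.56). Roots were at 1.79% ± 0.98, mature leaves at 1.82% ± 1.13, flowers at 1.33% ± 0.25 (n = 2) and young pods at 1.0% ± 0.49. In stem the limit of 5 reads allowed shares up to 0.998%, 0.181% and 0.307% in the 3 libraries. The share differed over tissues (permutation test, 100000 resamples, p = 1.2e-04, adjusted over the 2 share tests p = 2.4e-04). The shoot libraries did not overlap those of any other tissue. As an exact match, the 22 nt form lay in precursor 3 only, and mtr-miR160a in precursors 1, 3 and 4. In this share the level of precursor 3 and the length cut from it therefore cannot be told apart.

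**Figure D3:**
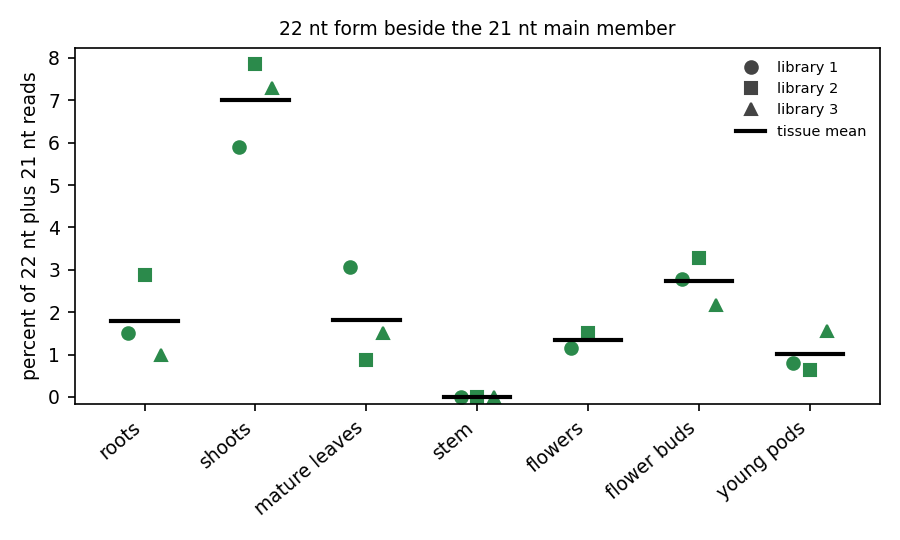
Share of the 22 nt form in the reads of the 22 nt form and the 21 nt guide, in percent, by tissue; symbols are libraries and bars tissue means. The 3 shoot libraries, at 5.91% to 7.85%, lie above all others, and the 3 stem libraries are at 0.

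The TTT-ended 21 nt form csi-miR160c-5p_1ss19CT, which shares the seed of the guide, was high in roots and in part of the flower buds. Roots held 445, 251 and 366 CPM (354 on average), and flower buds 61.8, 590 and 764 (472). Shoots held 44.2, 33.6 and 60.5 CPM, mature leaves 115, 47.2 and 0, stem 0, 131 and 72.4, flowers 39.0 and 55.5, and young pods 68.7, 65.3 and 31.7. Every root library lay above every library outside roots and flower buds, while the first bud library lay among the rest. Per entry the form took 16.4%, 10.9% and 11.8% of the reads of the form and the guide in roots and 2.28%, 10.3% and 10.5% in flower buds, against 0% to 5.62% elsewhere. With the guide's entries summed, the root shares were 8.92%, 5.77% and 6.30%. The share of 18 and 19 nt reads was 26.0%, 10.4% and 20.4% in the root libraries and 12.4% and 10.4% in those of flowers, and its part in the result was not tested.

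The form differed over tissues (adjusted p = 0.0119, edgeR), and 3 pairs were called, all of flower buds. Buds exceeded shoots by 3.33 ± 1.11 (log2 fold change ± SE, adjusted p = 0.0329), young pods by 3.07 ± 1.08 (0.0418) and mature leaves by 3.0 ± 1.09 (0.0493; 28.5% of all sequences called). These calls were not steady: leaving out 1 library ended the first for 4 libraries (each of shoots and the third of buds, adjusted p up to 0.0685), the second for 11 (roots 1 and 3, all of shoots and pods, leaves 2, buds 2 and 3, up to 0.0774) and the third for 2 (the second or the third of leaves, up to 0.116). The call over young pods was also lost with entries summed (adjusted p = 0.0568) and with p-values adjusted within each pair (0.0624). Roots were called against no tissue in this fit, and against shoots the difference was 2.91 ± 1.10 (adjusted p = 0.0572). This depended on the scaling, the tool, the model, the sequences and the libraries used. Roots were called over shoots, mature leaves, stem and young pods with DESeq2 size factors and with 20 to 24 nt sequences only, and over these and flowers with library size alone and with DESeq2. With entries summed they were called over shoots, and with p-values adjusted within each pair over shoots and young pods. With the replicate number as a block they were called over shoots and young pods. Without the first stem library they were called over shoots, mature leaves, flowers and young pods, and without the first flower library over none.

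The longer csi-miR160c-5p_R+1_1ss19CT, with 1 more base, was above 0 in 11 libraries. It was highest in flower buds, at 38.0, 136 and 199 CPM, and in roots, at 0, 89.1 and 32.3. It did not differ over tissues at the threshold (adjusted p = 0.241), with 0 pairs called and 0 at an unadjusted p under 0.05 (edgeR). The shorter csi-miR160c-5p_R-1_1ss18GA was above 0 in 2 libraries, both of flower buds, at 6.80 and 35.9 CPM, and mtr-MIR160d-p5 in the first 2 pod libraries only, at 17.8 and 23.5 CPM.

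**Figure D4:**
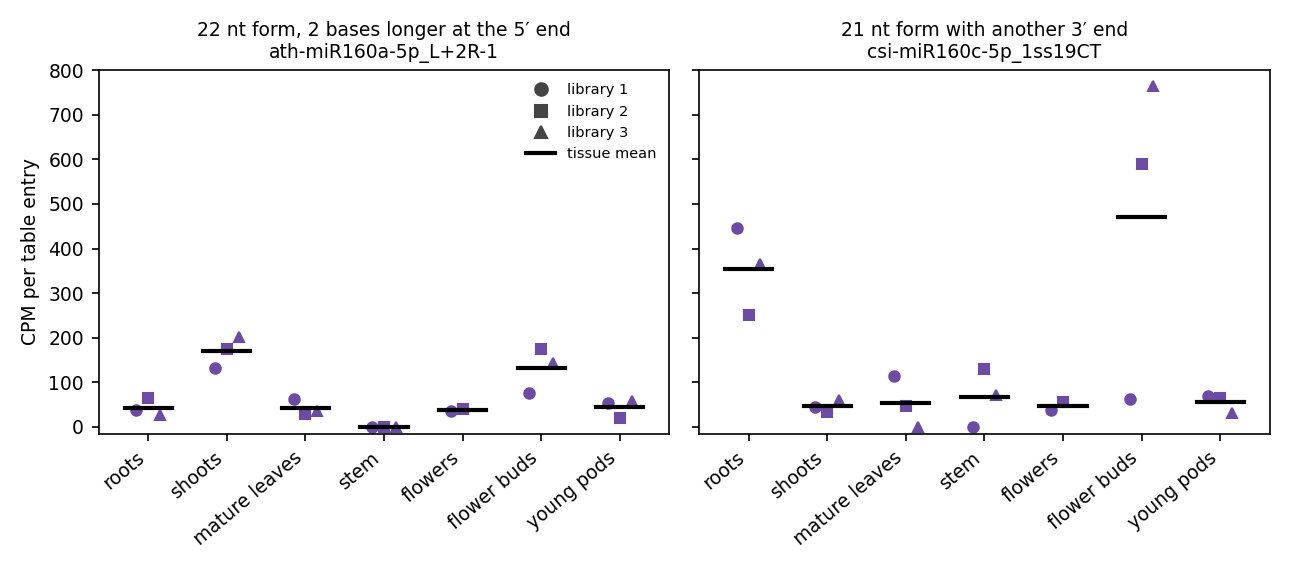
Levels of the 22 nt form and of the TTT-ended 21 nt form in the 20 libraries, as CPM per table entry on a linear axis; symbols are libraries and bars tissue means. The 22 nt form is highest in shoots and flower buds and at 0 in stem, while the TTT-ended form is highest in roots and in 2 of the 3 flower bud libraries.

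The sequences whose levels followed mtr-miR160a most closely were ranked by Pearson's r of log2(CPM + 1) over the 20 libraries, which share depth and scaling. The closest was ath-miR390a-5p (r = 0.904), whose tissue means were highest in young pods (51226 CPM) and flower buds (46483 CPM) and lay between 23353 and 26993 CPM elsewhere. Next came mtr-miR319c-5p_L-1R+1 (0.759), mtr-miR166a (0.721), ath-miR169a-3p_L+2_1ss14CT (0.719) and lcum-miR-44629_253-5p (0.707). Of these, mtr-miR166a was present in all tissues and highest in flower buds (519568 CPM), while the other 3 were at 0 in roots, shoots, leaves and stem. The 3p strand had r = 0.598 to the guide.

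Young pods were compared with the other 6 tissues for other miRNAs of the auxin pathway, taking the most abundant sequence of each of 4 families. These target NAC transcription factors (miR164), further auxin response factors (miR167), the TAS3 transcript that yields small RNAs against auxin response factors (miR390) and auxin receptors (miR393, by its 5p strand), as known from Arabidopsis. For miR393 the most abundant sequence, gma-MIR393c-p3, was of the 3p side, which is not the strand known for these targets. Of 24 comparisons, 7 were called higher in young pods, 4 lower and 13 neither. Of all sequences, 39.6% were called in either direction against roots, 23.5% against shoots, 28.2% against mature leaves, 23.5% against stem, 12.1% against flowers and 17.6% against flower buds. ath-miR164a was higher in pods than in 5 tissues, by log2 fold changes from 1.28 ± 0.30 over shoots to 2.97 ± 0.31 over roots, and not called against stem (0.30 ± 0.29). ath-miR167d_1ss22GA was lower than in 4 tissues, most against shoots (-4.65 ± 0.45), and was not called against stem or flowers. ath-miR390a-5p was higher than in mature leaves (1.13 ± 0.32, adjusted p = 0.0133, edgeR) and not called in the other 5 comparisons. Over roots (0.966, adjusted p = 0.0306), shoots (0.986, 0.0278) and stem (0.924, 0.0377) only the fold change fell short of its threshold. Over flowers it was 0.985 (adjusted p = 0.0517) and over flower buds 0.140 (0.874). gma-MIR393c-p3, named after soybean, was called against roots only, where it was at 0. These comparisons share the pod libraries with those of the miR160 strands above.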

How the data were processed

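Small RNA libraries (TruSeq kit, per the labels' protocols) of 7 tissues were deposited as 1 table of 1642 miRNA entries. The raw columns are expected counts as the authors deposited them: 25.8% of values above 0 were not whole (tolerance 0.01 reads), and all 177 repeated sequences had equal values in every library. The normalized columns are a signal that the authors made from these, per the file headers, and were used only as 1 factor per library. The aligner, the miRNA caller and other tools were not given in the sources used here, nor was the build. Another 7 lines are not reported here. Among 1146 unshared whole entries, 5 was the most frequent of 3892 values above 0 (786), 13 were lower and 0 were 1 or 2.

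Here 1 entry per sequence was kept (1464), counts were rounded, and edgeR 4.0.16 (R 4.3.3) was run with filterByExpr by tissue, TMM factors (0.508 to 1.71) and quasi-likelihood F tests, on all 20 libraries with no covariate. DESeq2 1.42.0 was an alternative. Shares of unrounded reads were tested by permutation (numpy 2.4.6), and precursors were folded with RNAfold 2.7.2. The fits and share tests were tried on simulated data. For the share tests these were normal values of equal spread. They therefore do not show how the test behaves on shares with zeros or unequal spread. Depth limits the rarer forms most. Named sequences were the family's members, the 5 with the highest correlation to the guide and the most abundant sequence of each auxin-related family. Members and lists were chosen with earlier results of these data known. Alternatives were the scaling, the tool, the filter, summed entries, sequence lengths, a replicate block, the adjustment and leaving out each library.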

Additional observations from a re-analysis of the deposited data

How the results depend on the processing

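Among the called pairs of the guide, the 3p strand and the TTT-ended form, no log2 fold change changed sign under any alternative tried. Pairs that were not called were not checked for this. The order of the guide's means in flower buds and young pods did turn with entries summed. The guide strand was called in 2 of 21 tissue pairs, and in 6 with DESeq2 size factors, 5 with library size alone, 7 with the authors' factors, 6 with DESeq2, 4 without a filter, 5 with entries summed, 6 with 20 to 24 nt sequences only and 2 to 9 with single libraries left out (9 without the second stem library). The 22 nt form was called in 6 pairs, and in 10 with library size alone, 10 with the authors' factors, 13 with DESeq2 and 6 to 12 with single libraries left out. The 3p strand was called in 12 pairs and in 10 to 16 with single libraries left out, and 4 to 5 members then differed over tissues. The TTT-ended form was called in 3 pairs, and in 8 with DESeq2 size factors, 9 with library size alone, 10 with DESeq2, 9 with 20 to 24 nt sequences only, 5 with the replicate block and 1 to 8 with single libraries left out. The share of all sequences called was not counted under these alternatives. A change in these counts therefore cannot be told apart from a general change in calls. The share of the 3p arm had p from 0.00151 to 0.0662, and that of the 22 nt form from 5e-05 to 2.5e-04, with single libraries left out. With the replicate number as a block the guide's difference over tissues had an adjusted p of 0.05001, against 0.0241, and so was no longer called, nor was the TTT-ended form in flower buds over mature leaves (0.0506). Whether the numbers pair the samples was not settled. Same-numbered libraries of different tissues had a median correlation of deviations of 0.0282, against -0.0114 for others. The correlation was over 0.1 in 17 of 57 same-numbered pairs and in 27 of 114 others. By mean correlation, 10 of 20 libraries were closest to those of their own number. Relative to TMM, the median of all sequences moved by over 0.1 (log2) in 12 of 21 pairs with DESeq2 size factors (-0.24 to 0.28), 16 with library size alone (-0.53 to 0.69) and 16 with the authors' factors (-1.05 to 0.26). The cause of these differences was not tested. Values near the limit of 5 reads, which includes the 22 nt form in 2 leaf libraries, are the least certain.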
